A study of Mus musculus with 26 samples.

Results

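RNA levels of 51 imprinted genes outside the H19-Igf2 and Grb10 loci were followed through 10 groups of mouse embryonic stem cell (ESC) and neural progenitor cell (NPC) libraries. The genes were taken from a list of known imprinted genes, matched by symbol, out of the 55291 gene symbols in each of the 2 count tables. By general knowledge, 24 of them are expressed from the paternal allele, 12 from the maternal allele and 12 from the maternal allele in some tissues, while in 3 (Gnas, H13 and Inpp5f) the allele depends on the isoform. The counts do not separate the parental alleles, so the class of a gene is background, and a level is the sum over both alleles. The genes were chosen with earlier results of these data known, so their share of calls against all genes is not an independent result.

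Imprinted genes carry DNA methylation that differs between the egg and the sperm and is kept on a single parental chromosome at an imprinting control region. Within a cluster, that region commonly drives a long noncoding RNA from one chromosome, as with Kcnq1ot1, Airn and Meg3, or sets apart enhancers and promoters through the DNA-binding protein CTCF. Many paternally expressed genes promote fetal and placental growth and several maternally expressed genes, such as Cdkn1c, Phlda2 and Igf2r, restrain it. In ESCs the methylation is guarded by ZFP57, a zinc finger protein that binds the hexamer TGCCGC when it is methylated, together with TRIM28 and DNMT1.

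All cells derive from the mouse ESC line E14. In the rescue lines both Ctcf alleles carry a degron tag (mAID-eGFP), the plant receptor OsTIR1(F74G) is expressed from Rosa26, an Hb9 reporter with mCherry is present, and doxycycline drives a tagged CTCF transgene, either WT or lacking zinc finger 1 (ΔZF1), from the Tigre locus. Each rescue line is 1 clone, and all 8 rescue libraries, 2 for each line as ESCs (ESC-WT and ESC-ΔZF1) and 2 as NPCs (NPC-WT and NPC-ΔZF1), come from cells given 1 µM 5-Ph-IAA to degrade the endogenous CTCF and 1 µg/ml doxycycline for 24 h. The other 18 libraries are 3 of each cell type from parental E14 (WT), from Podxl pA and from Grb10 pA, without that treatment. The pA lines are single-cell clones in which eGFP and an SV40 polyadenylation signal sit on both alleles after the first coding exon of Podxl or Grb10. ESCs were kept on gelatin in N2B27 with leukemia inhibitory factor and the inhibitors CHIR99021 and PD0325901. NPCs were differentiated for 2 days in N2B27 on laminin, a step for which the study names none of these additions. Each comparison of NPCs with ESCs thus also spans a change of medium, whose part was not tested. The study calls its replicates biological replicates, but the libraries of a line share a clone, so p-values measure only the spread between samples of that clone.

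The rescue libraries held 6425179 to 28730435 reads on genes and the truncation libraries 1907505 to 8845087. Levels are given as CPM, that is counts scaled to a common library size by edgeR's TMM method, and genes are compared with one another only as CPM per kb of exon. Genes were called up- or down-regulated at a Benjamini-Hochberg adjusted p no higher than 0.05 with a log2 fold change of 0.5 or more either way in edgeR's quasi-likelihood F test, over 16641 genes in the rescue table and 13268 in the truncation table. Of the 51 imprinted genes, 47 and 40 had enough reads to be tested. Kcnq1, Rasgrf1, Dcn and Kcnk9 were tested in neither table, and Zim1, Asb4, Magel2, Slc22a18, Airn, Slc22a3 and Peg13 were tested only in the rescue table. The targeted genes followed their labels: Podxl fell in Podxl pA cells by 2.73 on the log2 scale in ESCs and by 3.45 in NPCs, and Grb10 fell in Grb10 pA cells by 1.89 and 3.86. Ctcf, whose counts include the transgene, was higher in ΔZF1 than in WT rescue cells (log2 fold change 0.57 in ESCs and 0.78 in NPCs). Some libraries stood apart from their group. In NPC-WT replicate 2 the 10 most abundant genes held 11.8% of the counts (TMM factor 0.963), against 9.5% in replicate 1. The 10 most abundant genes held 15.5% of the counts of ESC Grb10 pA replicate 2 (TMM factor 0.895), against 8.63% and 8.97% in its group, and 11.2% of those of ESC WT replicate 1 of E14, and Podxl was at 12.9 CPM in ESC Podxl pA replicate 3 against 3.01 and 3.44 CPM. All 10 pluripotency markers listed fell on differentiation of the rescue WT line and 5 of the 8 neural progenitor markers tested rose, but Hes5 and Fabp7, neural progenitor markers, stood at 0 in NPC-WT of the rescue line. Extraembryonic endoderm markers rose as well, 8 of 11 in that line and 9 of 9 in E14, so the NPC libraries also carry RNA of genes typical of another lineage. In bulk RNA, fewer cells of a type and less RNA per cell cannot be told apart.

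Sequence next to the start of the genes that the results turn on is shown here so that the members can be compared by CpG content and by the ZFP57 hexamer. The RefSeq table of promoters on GRCm38.p6, the same assembly as mm10, gave a window of 300 bases (250 before and 50 after the start) for 41 of the 51 genes. TGCCGC stood on either strand of at least 1 window in 13 of these 41 genes (31.7%), against 13.1% of all 27025 genes of the table and 15.9% of its 17492 protein-coding genes. The genes' windows with the most CpG held a median of 17 CpG, against 8 over all genes and 15 over the protein-coding ones. Shown here are exon-free stretches in front of the start of 5 paternally expressed genes, from each gene's window with the most CpG, written 5′ to 3′ in the direction of transcription, with each hexamer in capitals.
Nnat (chr2:157560008-157560077, plus strand, an intron of Blcap): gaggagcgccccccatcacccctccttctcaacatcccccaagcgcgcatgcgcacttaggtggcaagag
Mest (chr6:30737800-30738049, plus strand, an intron of the longest Mest transcripts): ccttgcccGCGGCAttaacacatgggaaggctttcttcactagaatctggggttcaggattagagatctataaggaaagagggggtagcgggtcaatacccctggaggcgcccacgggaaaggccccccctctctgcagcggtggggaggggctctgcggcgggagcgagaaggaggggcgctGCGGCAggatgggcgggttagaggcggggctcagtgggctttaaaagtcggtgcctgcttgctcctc
Snrpn (chr7:60005200-60005449, minus strand, an intron of the longest Snrpn transcripts): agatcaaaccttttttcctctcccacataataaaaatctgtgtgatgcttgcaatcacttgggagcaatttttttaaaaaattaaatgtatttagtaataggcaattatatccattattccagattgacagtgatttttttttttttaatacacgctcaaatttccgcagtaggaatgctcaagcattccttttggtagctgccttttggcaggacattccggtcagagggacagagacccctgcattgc
Peg3 (chr7:6730432-6730577, minus strand, between genes): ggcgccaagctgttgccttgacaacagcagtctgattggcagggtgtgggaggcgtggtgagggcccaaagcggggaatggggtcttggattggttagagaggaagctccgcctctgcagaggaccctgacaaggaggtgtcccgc
Plagl1 (chr10:13090582-13090690, plus strand, an intron of the longest Plagl1 transcripts): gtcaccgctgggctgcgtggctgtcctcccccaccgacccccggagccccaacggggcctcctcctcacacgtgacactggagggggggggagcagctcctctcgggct
The Mest stretch held 14 CpG and 2 copies of the hexamer, both read as GCGGCA on this strand. The Snrpn stretch held 3 CpG, and its hexamer, like those of Nnat and Plagl1, lay in the window but not wholly within the stretch shown. The Peg3 stretch is the whole interval between the divergent starts of Peg3 and Usp29 and held 5 CpG and no TGCCGC. A match says only that these letters are present, and binding and methylation were not measured here.

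Differentiation moved most of the imprinted genes, and upward more often than downward. From ESC-WT to NPC-WT, 24 of the 47 genes tested rose and 6 fell (of all genes 41.9% were called, 22% up and 19.9% down), with a median log2 fold change of 0.65 over the tested members and 0.01 over all genes. From WT ESCs to WT NPCs of E14, 21 of 40 rose and 3 fell (of all genes 32.8%, 16.5% up and 16.3% down), with a median of 0.65 against -0.01. The 2 tables share no library. Of the 40 genes tested in both, 26 were called in the rescue line and 24 in E14, and 18 were called in the same direction in both, which is 69.2% of the former and 75% of the latter. No imprinted gene was called in opposite directions. The same overlap was not counted over all genes, so it is not shown to be particular to imprinted genes. Up in both were Meg3, Mirg, Dlk1, Rtl1, Peg3, Usp29, Peg10, Sgce, Calcr, Mest, Nnat, Gnas, Sfmbt2, Cdkn1c, Phlda2 and Ascl2, and down in both were Ampd3 and Plagl1.

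**Figure D1:**
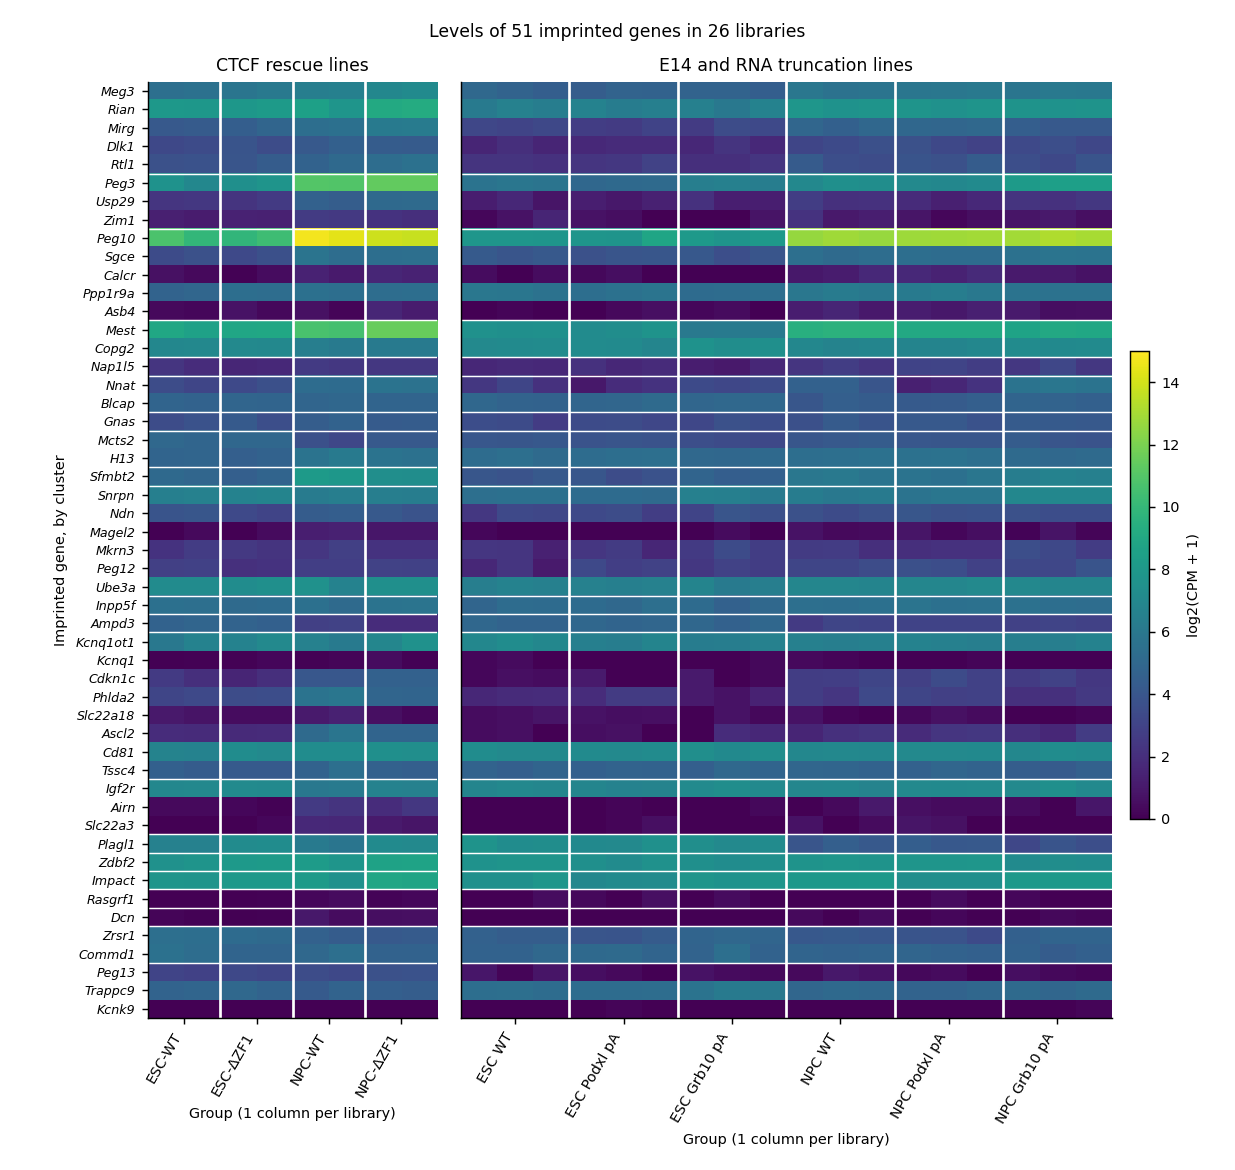
Heat map of the level of the 51 imprinted genes (rows, by cluster) in each of the 26 libraries (columns, by group), as log2(CPM + 1). Peg10, Mest and Peg3 brighten from ESC to NPC columns in both panels, whereas Kcnq1, Rasgrf1, Dcn and Kcnk9 stay dark throughout.

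Peg10, a retrotransposon-derived gene needed for the placenta, had the highest level per length of the 51 genes in NPCs. It rose from 1740 and 985 CPM in ESC-WT to 26900 and 21000 CPM in NPC-WT (log2 fold change 4.14, SE 0.28, adjusted p = 2.25e-06). In E14 it rose from 236, 233 and 221 CPM to 6260, 7390 and 6690 CPM (4.88, SE 0.19, adjusted p = 1.47e-17). No ESC library reached the lowest NPC library in either table. Per kb of exon its mean was 3600 CPM in NPC-WT, 2120 in NPC-ΔZF1 and 1020 in WT NPCs of E14, followed by Mest with 408, 730 and 191 CPM. Levels set across the 2 tables are side by side only, since the tables were normalized apart.

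Ascl2, Phlda2 and Sfmbt2 were among the other large rises of the rescue WT line. Ascl2, a basic helix-loop-helix factor of trophoblast, rose from 2.75 and 2.54 CPM to 36.1 and 55.6 CPM (log2 fold change 4.12, SE 0.25, adjusted p = 1.43e-06). Phlda2, which restrains placental growth, rose from 7.95 and 8.87 CPM to 51.5 and 58.4 CPM (2.69, SE 0.14, adjusted p = 7.96e-07). Sfmbt2, a Polycomb group gene, rose from 34.5 and 30.3 CPM to 290 and 249 CPM (3.07, SE 0.15, adjusted p = 5.83e-07). In each of these 3 genes the NPC libraries lay far above the ESC libraries. Trophoblast markers rose too, 5 of 5 tested, from a summed 95.5 to 104 CPM in ESC-WT to 302 to 304 CPM in NPC-WT, although Tpbpa and Prl3d1 were at 0 in both, and their part in the result was not tested.

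Peg3, a zinc finger gene, and Usp29, its neighbour with a divergent start, rose together. Peg3 went from 198 and 121 CPM to 2000 and 1960 CPM (log2 fold change 3.64, SE 0.21, adjusted p = 1.19e-06), and Usp29 from 3.97 and 4.30 CPM to 24.7 and 20.2 CPM (2.43, SE 0.19, adjusted p = 5.73e-06). Sgce, which encodes epsilon-sarcoglycan and shares a promoter region with Peg10, rose from 9.63 and 12.1 CPM to 54.2 and 40.8 CPM (2.10, SE 0.19, adjusted p = 1.53e-05). For all 3 genes both NPC-WT libraries exceeded both ESC-WT libraries. At the Igf2r cluster, the antisense RNA Airn went from 0.306 and 0.326 CPM to 4.96 and 3.78 CPM (3.77, SE 0.50, adjusted p = 0.000191), and its neighbour Slc22a3, an organic cation transporter, from 0 in both ESC-WT libraries to 2.25 and 2.23 CPM, at least 16.4-fold higher against a floor of 3 counts over the group. Magel2, a MAGE family gene next to Ndn, had 0 and 0.326 CPM in ESC-WT and 1.40 and 1.55 CPM in NPC-WT (2.68, SE 0.80, adjusted p = 0.0198). These last genes rest on few reads. Igf2r, on the other strand from Airn, fell by 0.88 on the log2 scale (SE 0.10, adjusted p = 9.31e-05), from 122 and 128 CPM to 63.6 and 72.1 CPM.

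In E14 the 10 largest changes included Cdkn1c, Plagl1, Calcr, Ampd3 and Dlk1. Cdkn1c, a cyclin-dependent kinase inhibitor, rose from 0.218, 0.514 and 0.388 CPM in WT ESCs to 5.50, 5.96 and 7.75 CPM in WT NPCs (log2 fold change 3.95, SE 0.58, adjusted p = 2.68e-06). Plagl1, a zinc finger transcription factor, fell by 3.23 on the log2 scale (SE 0.17, adjusted p = 8.52e-15), from 207, 153 and 163 CPM to 14.6, 21.9 and 17.2 CPM. The 3 NPC libraries of Plagl1 lay far below every ESC library, whereas in the rescue WT line it fell only by 0.63 (SE 0.11, adjusted p = 0.00133), from 95.5 and 97.1 CPM to 67.7 and 56.8 CPM. Ampd3, an AMP deaminase, fell in E14 from 31.6, 26.9 and 26 CPM to 4.85, 7.64 and 7.08 CPM, by 2.06 on the log2 scale (SE 0.17, adjusted p = 1.20e-10), and in the rescue WT line by 2.09 (SE 0.16, adjusted p = 5.12e-06). Calcr, the calcitonin receptor, rose from at most 0.436 CPM to 0.971, 1.22 and 2.36 CPM (2.50, SE 0.75, adjusted p = 0.00813). The call of Calcr rested on few reads and was lost in 2 of 10 alternatives, DESeq2 among them. Dlk1, a non-canonical Notch ligand, rose from 1.96, 3.08 and 1.94 CPM to 7.77, 9.47 and 11.5 CPM (1.95, SE 0.29, adjusted p = 3.91e-06). Both genes had no NPC library in the range of the ESC libraries.

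The other members of the 10 with the largest change in E14 were Mest, Nnat, Sfmbt2, Ascl2 and Peg10. Mest, an alpha/beta hydrolase-fold gene, rose from 195, 174 and 184 CPM to 708, 785 and 763 CPM (log2 fold change 2.03, SE 0.10, adjusted p = 2.02e-15). Nnat, a small membrane proteolipid of the developing nervous system, rose from 4.36, 7.88 and 3.49 CPM to 24.6, 24 and 14.5 CPM (1.92, SE 0.25, adjusted p = 6.16e-07). Sfmbt2 rose from 15, 13.5 and 17.1 CPM to 59.9, 65.6 and 53.9 CPM (2.02, SE 0.15, adjusted p = 1.22e-11). For these 3 the lowest NPC library was above the highest ESC library. Ascl2 rested on few reads, at most 0.514 CPM in WT ESCs and 1.94, 3.21 and 3.71 CPM in WT NPCs (2.89, SE 0.74, adjusted p = 0.00214).

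By allele class, 7 of 10 maternally expressed and 14 of 23 paternally expressed genes tested were called on differentiation in the rescue WT line, and 6 of 7 and 15 of 20 in E14. The genes expressed maternally in some tissues gave 7 of 11 and 2 of 10. At Dlk1-Dio3, 4 of 5 genes rose in the rescue WT line and 5 of 5 in E14. At the Snrpn cluster, 1 of 6 rose (Magel2) in the rescue line and 3 of 5 (Snrpn, Ndn and Peg12) in E14. The mutant lines gave like counts, 29 up and 5 down of 47 in ΔZF1 (of all genes 37.3%, 20.4% up and 16.9% down), 18 up and 3 down of 40 in Podxl pA (31.8%, 17.1% and 14.7%) and 20 up and 3 down of 40 in Grb10 pA (34.6%, 17.2% and 17.4%).

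**Figure D2:**
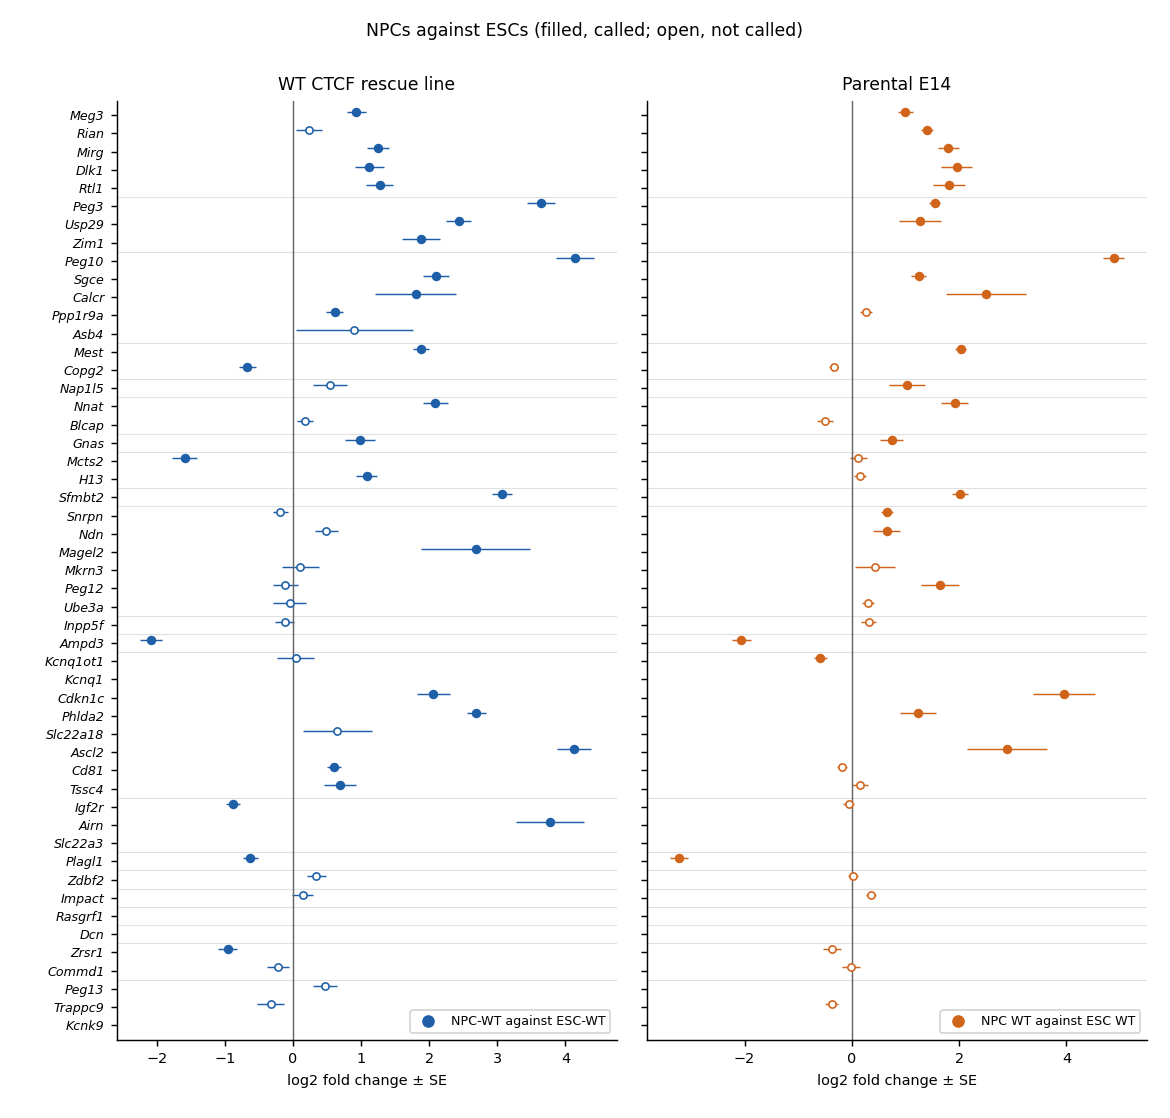
Log2 fold change from ESCs to NPCs (horizontal axis, points with bars of 1 SE) of each imprinted gene (vertical axis) in the rescue WT (blue) and E14 WT (orange) lines, with filled points for genes called and open points for the others. Most filled points lie to the right of 0 in both panels, and genes with an SE above 1, such as Slc22a3, are not drawn.

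ΔZF1 changed 4 of the 47 imprinted genes tested in ESCs and 19 of 47 in NPCs. The first comparison had a background of 3.61% of all genes called (1.29% up and 2.33% down) and the second 17.6%, against 8.51% and 40.4% of the imprinted genes. The median log2 fold change over the tested imprinted genes was 0.07 in ESCs and -0.05 in NPCs, against -0.01 and 0 over all genes.

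In ESCs, Ndn and Peg12, paternally expressed neighbours of the Snrpn cluster, were lower in ΔZF1. Ndn, a MAGE family gene, had 13.6 and 15 CPM in ESC-WT and 8.81 and 7.43 CPM in ESC-ΔZF1 (log2 fold change -0.83, SE 0.19, adjusted p = 0.0396). Peg12, a relative of the Frat regulators of Wnt signaling, had 6.27 and 6.46 CPM in ESC-WT and 3.16 and 3.65 CPM in ESC-ΔZF1 (-0.90, SE 0.20, adjusted p = 0.0381). Both ESC-ΔZF1 libraries lay below both ESC-WT libraries for these 2 genes, whose neighbours Snrpn, Mkrn3, Magel2 and Ube3a did not pass. Cd81, a tetraspanin gene, had 104 and 98.9 CPM in ESC-WT and 153 and 135 CPM in ESC-ΔZF1 (0.51, SE 0.10, adjusted p = 0.0307). Plagl1 had 95.5 and 97.1 CPM in ESC-WT and 150 and 157 CPM in ESC-ΔZF1 (0.67, SE 0.11, adjusted p = 0.0172). For Cd81 and Plagl1 both ESC-ΔZF1 libraries were the higher. Among the genes not called, the log2 fold change ran from -1.14 (Airn) to 3.99 (Slc22a3), both at few reads. Of 24 genes of imprint control tested, Dppa3, a factor that guards methylation in the early embryo, fell (-1.64) and no other was called. The lineage markers gave 1 call up each in neural progenitor, extraembryonic endoderm and mesoderm genes and 1 down in neuron genes, and their part in the result was not tested. No imprinted gene stayed called when any 1 of the 4 libraries was left out, where 8 to 21 genes of the whole table were called. With the median of chromosome 11, which was -0.46 in ESC-ΔZF1, taken into the offsets, 2 were called, both up (Plagl1 and Cd81).

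In NPCs, 13 imprinted genes were up-regulated in ΔZF1 and 6 were down-regulated, beside 7.19% and 10.5% of all genes. Of the genes tested, 9 of 10 maternally expressed ones were called (6 up, 3 down), as were 8 of 23 paternally expressed ones (7 up, 1 down) and 2 of 11 that are maternal in some tissues (both down). Neighbours in a cluster, such as Meg3, Rian and Mirg, are counted separately. Of the maternally expressed genes, only Phlda2 stayed called under each alternative run. Of the others, only Plagl1, Mest and Ampd3 did.

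The genes with the smallest adjusted p were Plagl1, Phlda2, Ampd3 and Mest. Plagl1 had 67.7 and 56.8 CPM in NPC-WT and 142 and 134 CPM in NPC-ΔZF1 (log2 fold change 1.15, SE 0.11, adjusted p = 0.000211), and it was the sole gene called in both cell types (1 of 4 and 1 of 19). Mest had 1680 and 1540 CPM in NPC-WT and 2880 CPM in both libraries of NPC-ΔZF1 (0.84, SE 0.12, adjusted p = 0.00155). Phlda2 had 51.5 and 58.4 CPM in NPC-WT and 29.1 and 27.9 CPM in NPC-ΔZF1 (-0.94, SE 0.12, adjusted p = 0.00105). Plagl1 and Mest were thus higher and Phlda2 lower in both ΔZF1 libraries. Ampd3 had 6.23 and 6.70 CPM in NPC-WT and 2.78 and 2.69 CPM in NPC-ΔZF1 (-1.23, SE 0.17, adjusted p = 0.00136). These 4 genes stayed called under each of the alternatives run.

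Around Kcnq1, the paternal noncoding RNA Kcnq1ot1, which silences its neighbours in cis, had 97 and 70.4 CPM in NPC-WT and 115 and 190 CPM in NPC-ΔZF1 (log2 fold change 0.86, SE 0.27, adjusted p = 0.0472). Cdkn1c had 15.6 and 16.1 CPM in NPC-WT and 23.9 and 24.4 CPM in NPC-ΔZF1 (0.61, SE 0.19, adjusted p = 0.0470). Of the other maternally expressed neighbours, Ascl2 had 36.1 and 55.6 CPM in NPC-WT and 27.5 CPM in both libraries of NPC-ΔZF1 (-0.73, SE 0.18, adjusted p = 0.0207). The cluster thus held genes that rose and genes that fell. Slc22a18, a transporter gene next to Phlda2, had 1.10 and 1.63 CPM in NPC-WT and 0.529 and 0.221 CPM in NPC-ΔZF1 (-1.79, SE 0.48, adjusted p = 0.0275). Together with Phlda2, 2 of the 7 genes tested there rose and 3 fell. Of these calls, only that of Phlda2 stood under each alternative run. The call of Ascl2 was lost in 4 of 10 alternatives and that of Slc22a18 in 4 of 9. The call of Cdkn1c was lost in 6 of 10 alternatives, DESeq2 among them (highest adjusted p = 0.238), and that of Kcnq1ot1 in 4 of 10 (highest adjusted p = 0.366). At the Igf2r locus, Igf2r, the receptor that carries insulin-like growth factor ligand to lysosomes, had 63.6 and 72.1 CPM in NPC-WT and 97.6 and 94.9 CPM in NPC-ΔZF1 (0.51, SE 0.10, adjusted p = 0.0081), higher in both ΔZF1 libraries, a call lost in 5 of 10 alternatives (highest adjusted p = 0.102), by DESeq2 only through a log2 fold change just under the threshold.

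At Dlk1-Dio3 the 3 maternally expressed noncoding RNAs rose together. Meg3 had 83.3 and 91.7 CPM in NPC-WT and 123 and 146 CPM in NPC-ΔZF1 (log2 fold change 0.62, SE 0.13, adjusted p = 0.00926). Rian, a host of small nucleolar RNAs, had 366 and 227 CPM in NPC-WT and 558 and 592 CPM in NPC-ΔZF1 (0.95, SE 0.19, adjusted p = 0.00686). Mirg, a host of microRNAs, had 41.1 and 45.5 CPM in NPC-WT and 69.2 and 75.6 CPM in NPC-ΔZF1 (0.74, SE 0.15, adjusted p = 0.0078). For all 3 the ΔZF1 libraries were above the WT libraries, and each call was lost in 2 of 10 alternatives. The paternally expressed genes of the cluster were not called. Dlk1 had 17.1 and 23 CPM in NPC-WT and 19.6 and 18.7 CPM in NPC-ΔZF1. Rtl1, a retrotransposon-derived gene antisense to part of the locus, had 25.8 and 34.5 CPM and then 40.5 and 47.8 CPM. Its log2 fold change of 0.56 was the largest among the genes not called. Of its exon bases 8.4% overlap other genes, partly on the other strand. Unstranded counts cannot separate RNA of the 2 strands there, so the Rtl1 value may not be that of the paternally expressed gene alone.

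Among the remaining paternally expressed genes, 5 were called and 4 of them rose. Impact, an inhibitor of a kinase of translation control, had 288 and 193 CPM in NPC-WT and 460 and 431 CPM in NPC-ΔZF1 (log2 fold change 0.89, SE 0.16, adjusted p = 0.00461). Zdbf2, a zinc finger gene, had 294 and 222 CPM in NPC-WT and 400 and 410 CPM in NPC-ΔZF1 (0.65, SE 0.13, adjusted p = 0.00844). Usp29 had 24.7 and 20.2 CPM in NPC-WT and 34.3 and 35 CPM in NPC-ΔZF1 (0.62, SE 0.15, adjusted p = 0.0176). All ΔZF1 libraries of these genes were above the WT libraries. Mcts2, a retrogene copy of Mcts1 inside H13, had 11.9 and 8.08 CPM in NPC-WT and 17.5 and 16.9 CPM in NPC-ΔZF1 (0.76, SE 0.17, adjusted p = 0.0138). Sfmbt2 had 290 and 249 CPM in NPC-WT and 167 and 160 CPM in NPC-ΔZF1, both ΔZF1 libraries being the lower (-0.72, SE 0.13, adjusted p = 0.00498). Reads of a retrogene such as Mcts2 may be split with its parent, so its value is uncertain. The parent Mcts1 had a log2 fold change of 0.73 in the same comparison (SE 0.23, adjusted p = 0.0503) and was not called. The calls of Usp29 and Zdbf2 were each lost in 4 of 10 alternatives. That of Mcts2 was lost in 3 of 10, that of Sfmbt2 in 2 and that of Impact in 1.

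The last 2 genes called in NPC-ΔZF1 were Asb4 and Commd1. Asb4, an ankyrin repeat gene near Peg10, had 0.593 and 0.172 CPM in NPC-WT and 2.04 and 1.25 CPM in NPC-ΔZF1, few reads in each library (log2 fold change 1.90, SE 0.54, adjusted p = 0.0331). Commd1, whose product takes part in copper handling, had 32 and 44.3 CPM in NPC-WT and 25.5 and 25.8 CPM in NPC-ΔZF1 (-0.56, SE 0.16, adjusted p = 0.0336). Both libraries of ΔZF1 were below those of WT for Commd1, which lies on chromosome 11, whose median log2 fold change in NPC-ΔZF1 was -0.57 over 1322 genes. With that median in the offsets the value of Commd1 was 0 (adjusted p = 0.993). The call of Asb4 was lost in 3 of 9 alternatives, and that of Commd1 in this one and 4 others of 10. Zrsr1, in the same locus, had 23.8 and 19.4 CPM in NPC-WT and 16.9 and 18.7 CPM in NPC-ΔZF1 and was not called.

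Markers of other lineages moved with these genes. Extraembryonic endoderm markers rose in NPC-ΔZF1 in 11 of 11 genes tested, from a summed 710 to 954 CPM in NPC-WT, where Apoa1 was at 0, to 4590 to 4610 CPM. Trophoblast markers fell in 3 of 5, from 302 to 304 CPM to 189 to 194 CPM, with Tpbpa and Prl3d1 at 0 in both groups. Of the 8 neural progenitor markers tested, 3 rose and 1 fell. Their part in the results of NPC-ΔZF1 was not tested. Of 24 genes of imprint control tested, 4 rose and 1 fell, namely Zfp57 (log2 fold change 1.10), Tet1 (0.62), Hells (0.60) and Dnmt3l (0.51), and Dppa3 (-0.92). The count of imprinted genes called was 5 without NPC-ΔZF1 replicate 2, 8 without NPC-ΔZF1 replicate 1 and 16 to 24 without an NPC-WT library, and it was 6 with only the 4 NPC libraries in the fit.

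The effects of ΔZF1 differed between the cell types by the test of the difference itself in 2 of 47 imprinted genes (background 2.7%, 1.59% up and 1.11% down), Ampd3 and Phlda2. Ampd3 had 25.8 and 28.9 CPM in ESC-WT and 26.9 and 23.2 CPM in ESC-ΔZF1, and its effect in NPCs minus that in ESCs was -1.10 (SE 0.23, adjusted p = 0.0327). Phlda2 had 7.95 and 8.87 CPM in ESC-WT and 10.1 and 10.7 CPM in ESC-ΔZF1, with a difference of effects of -1.24 (SE 0.20, adjusted p = 0.0129). The ESC libraries of Ampd3 overlapped between the lines, both ESC-ΔZF1 libraries of Phlda2 were above those of ESC-WT without passing the test, and both genes were lower in NPC-ΔZF1. The count was 0 without any 1 of the ESC-WT, ESC-ΔZF1 or NPC-ΔZF1 libraries, 17 without NPC-WT replicate 1 and 9 without NPC-WT replicate 2.

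**Figure D3:**
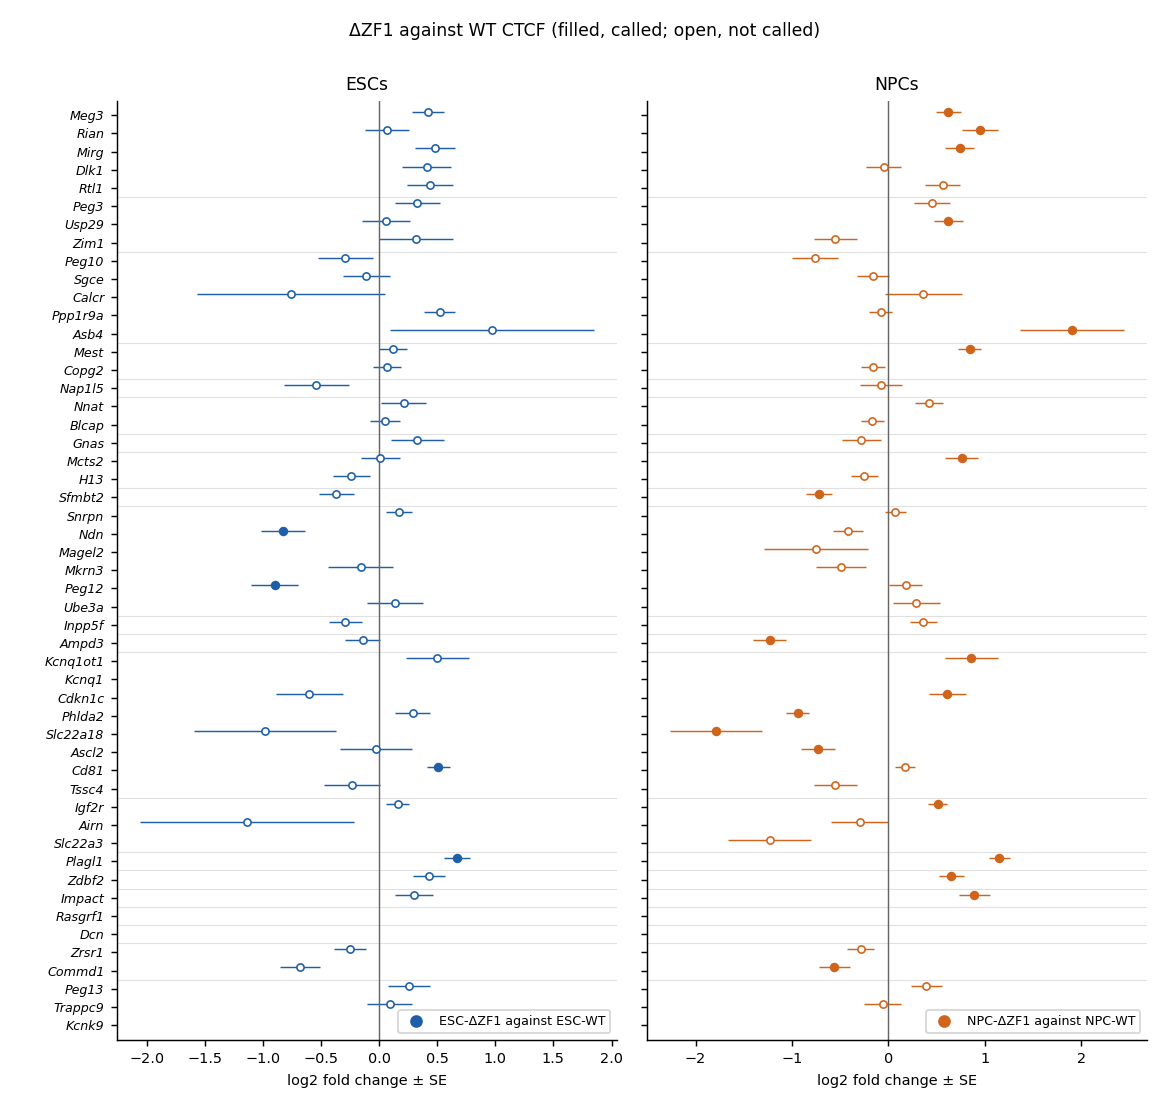
Log2 fold change of ΔZF1 against WT (horizontal axis, points with bars of 1 SE) of each imprinted gene (vertical axis) in ESCs (blue) and NPCs (orange), with filled points for genes called and open points for the others. Few points are filled in ESCs (4) and more in NPCs (19), where Plagl1 lies to the right and Ampd3 and Phlda2 to the left; genes with an SE above 1 are not drawn.

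Podxl pA and Grb10 pA were each compared with the same WT libraries of E14, so that a WT library that stands apart would enter both. Values of the 2 lines are therefore given side by side. The imprinted genes called in Podxl pA were 3 of 40 in ESCs, all down (background 0.339%, 0.0829% up and 0.256% down), and 3 of 40 in NPCs, all down (0.55%, 0.384% up and 0.166% down). In Grb10 pA they were 4 up and 3 down of 40 in ESCs (9.09%, 4.51% up and 4.58% down) and 6 up and 3 down of 40 in NPCs (16.5%, 7.9% up and 8.64% down). Median log2 fold changes over the tested imprinted genes were 0, 0.04, 0.12 and 0.04, and over all genes between 0 and 0.01. All genes called in Podxl pA are paternally expressed, as were 6 of the 7 and 8 of the 9 called in Grb10 pA, among 20 paternally expressed genes tested.

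Among the genes called, Nnat had the largest log2 fold change, and it moved in opposite directions in the 2 lines as NPCs. It had 24.6, 24 and 14.5 CPM in WT NPCs, 1.54, 2.07 and 3.67 CPM in Podxl pA NPCs, and 52.3, 57.3 and 51.1 CPM in Grb10 pA NPCs. The 3 groups did not overlap. The level was 8.34-fold lower in Podxl pA (log2 fold change -3.06, SE 0.29, adjusted p = 2.11e-07) and higher in Grb10 pA (1.31, SE 0.19, adjusted p = 7.41e-06). In ESCs it had 4.36, 7.88 and 3.49 CPM in WT, 0.925, 2.81 and 3.61 CPM in Podxl pA and 9.52, 8.28 and 9.95 CPM in Grb10 pA, and was called in neither. Blcap, which contains Nnat in an intron and lies on the other strand, was not called in either line as ESCs or NPCs, with 14.9, 22.6 and 19.2 CPM in WT NPCs, 17.7, 18.4 and 22 CPM in Podxl pA NPCs and 27.5, 26.2 and 22.9 CPM in Grb10 pA NPCs. Both calls of Nnat in NPCs stood under each alternative run.

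Mest was the sole gene called in 4 comparisons with WT. Its level was 195, 174 and 184 CPM in WT ESCs, 151, 160 and 206 CPM in Podxl pA ESCs and 66.4, 71.8 and 70.1 CPM in Grb10 pA ESCs, so that Grb10 pA lay below every WT library (log2 fold change -1.41, SE 0.11, adjusted p = 8.5e-10). In NPCs it was 708, 785 and 763 CPM in WT, 523, 521 and 533 CPM in Podxl pA (-0.52, SE 0.09, adjusted p = 0.00349) and 415, 531 and 480 CPM in Grb10 pA (-0.67, SE 0.09, adjusted p = 7e-06). Both mutant lines were below WT in every NPC library. In Grb10 pA the effect in NPCs minus that in ESCs was 0.74 (SE 0.14, adjusted p = 0.00168). Copg2, a coat protein gene that overlaps the end of Mest on the other strand, was not called in either line, and 23.1% of the exon bases of Mest lie in such an overlap, where unstranded counts cannot separate the genes.

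Peg3 was called down in Podxl pA ESCs and up in Grb10 pA. It had 51.2, 57.2 and 54 CPM in WT ESCs, 30.8, 34.4 and 35.5 CPM in Podxl pA ESCs (log2 fold change -0.70, SE 0.13, adjusted p = 0.00919) and 86.1, 91.8 and 81.5 CPM in Grb10 pA ESCs (0.67, SE 0.12, adjusted p = 0.000204). In NPCs it had 127, 178 and 165 CPM in WT, 132, 123 and 142 CPM in Podxl pA, which overlapped WT and was not called, and 288, 357 and 349 CPM in Grb10 pA (1.07, SE 0.10, adjusted p = 1.27e-08). The ESC groups of the 3 lines did not overlap.

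Snrpn, a splicing ribonucleoprotein gene whose counts may include reads of Snurf, with which it shares exons (34.1% of its exon bases overlap other genes), was higher in Grb10 pA in both cell types. It had 43.4, 45.9 and 44.7 CPM in WT ESCs and 93.3, 89.7 and 69.7 CPM in Grb10 pA ESCs (log2 fold change 0.91, SE 0.11, adjusted p = 1.03e-06), and 78.6, 63.4 and 71.1 CPM in WT NPCs and 123, 121 and 120 CPM in Grb10 pA NPCs (0.78, SE 0.10, adjusted p = 1.02e-06). In Podxl pA it had 36.3, 36.2 and 35.5 CPM in ESCs and 51.9, 57.6 and 57.4 CPM in NPCs, each below WT in every library but not called. Sfmbt2 was likewise higher in Grb10 pA, with 15, 13.5 and 17.1 CPM in WT ESCs and 27.9, 21.7 and 23.2 CPM in Grb10 pA ESCs (0.72, SE 0.17, adjusted p = 0.00351), and 59.9, 65.6 and 53.9 CPM in WT NPCs and 81.8, 98.5 and 93.2 CPM in Grb10 pA NPCs (0.59, SE 0.12, adjusted p = 0.000511). Peg3, Mest, Snrpn and Sfmbt2 were the genes called in both cell types of Grb10 pA, 4 of 7 and 4 of 9, each in the same direction.

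**Figure D4:**
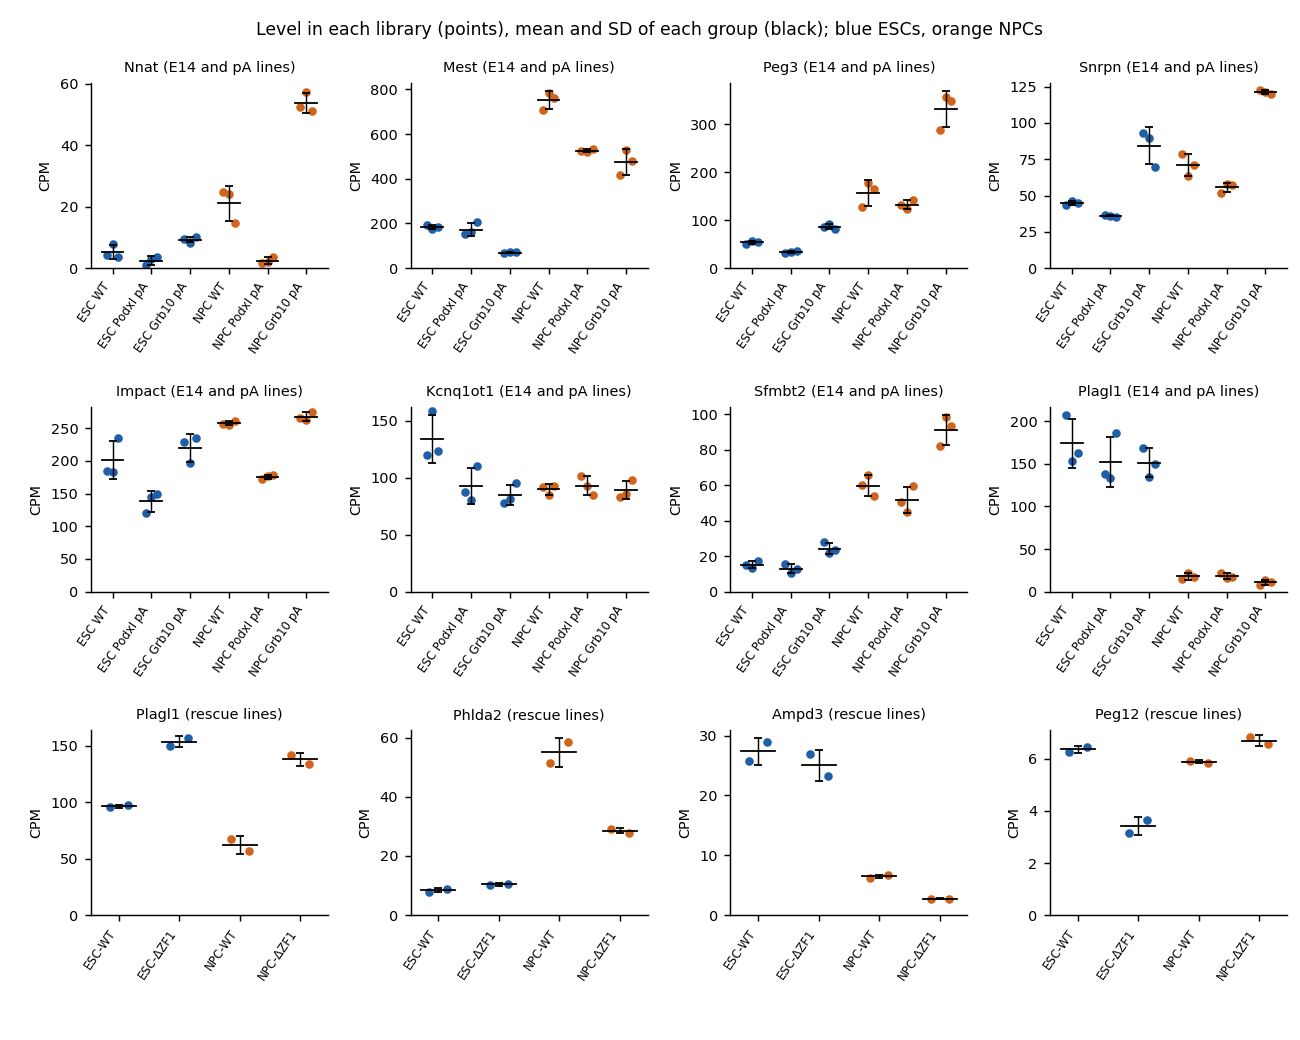
CPM of selected imprinted genes in each library (points), with the mean and SD of each group in black, ESCs in blue and NPCs in orange, 1 panel per gene and table, each axis starting at 0. Nnat in NPCs is lowest in Podxl pA and highest in Grb10 pA, and Mest in ESCs is lowest in Grb10 pA.

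Impact was the gene called in both cell types of Podxl pA (1 of 3 and 1 of 3). It had 185, 183 and 235 CPM in WT ESCs and 120, 144 and 150 CPM in Podxl pA ESCs (log2 fold change -0.54, SE 0.10, adjusted p = 0.00684), and 256, 255 and 261 CPM in WT NPCs and 172, 177 and 178 CPM in Podxl pA NPCs (-0.55, SE 0.09, adjusted p = 0.00248). Every Podxl pA library lay below every WT library of its cell type. Grb10 pA had 229, 196 and 235 CPM in ESCs and 265, 263 and 275 CPM in NPCs and was not called. Kcnq1ot1 fell in the ESCs of both lines, from 120, 158 and 123 CPM in WT to 87, 80.1 and 110 CPM in Podxl pA (-0.58, SE 0.12, adjusted p = 0.0206) and 78.1, 81.5 and 95 CPM in Grb10 pA (-0.66, SE 0.12, adjusted p = 0.000198). In NPCs it had 91.9, 84.3 and 93 CPM in WT, 101, 93 and 84.7 CPM in Podxl pA and 83, 86 and 98 CPM in Grb10 pA, with overlapping groups. The difference of the effects in NPCs and ESCs was called for Grb10 pA (0.66, SE 0.16, adjusted p = 0.0148).

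The other 2 genes called in Grb10 pA ESCs were Mcts2 and Trappc9. Mcts2 had 15.9, 15.1 and 16.7 CPM in WT ESCs and 11, 9.67 and 8.53 CPM in Grb10 pA ESCs (log2 fold change -0.69, SE 0.18, adjusted p = 0.00946). Its parent Mcts1 was at -0.03 there (SE 0.21) and was not called. Trappc9, a gene of a vesicle trafficking complex, had 41, 43.5 and 38.1 CPM in WT ESCs and 51.1, 68.3 and 62.1 CPM in Grb10 pA ESCs (0.54, SE 0.12, adjusted p = 0.00164). Mcts2 was below and Trappc9 above WT in all 3 libraries. Without Grb10 pA replicate 2, 6 of the 7 genes of Grb10 pA ESCs were called, Trappc9 being at 0.45, and without WT replicate 1 the count was 8.

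In Grb10 pA NPCs a further 4 genes were called. Plagl1 had 14.6, 21.9 and 17.2 CPM in WT NPCs and 8.21, 14 and 11.3 CPM in Grb10 pA NPCs (log2 fold change -0.81, SE 0.22, adjusted p = 0.00686), and 21.8, 16.2 and 17 CPM in Podxl pA NPCs. Mirg, the one maternally expressed gene called, had 30.4, 23.7 and 30.7 CPM in WT NPCs and 21, 17.2 and 17.3 CPM in Grb10 pA NPCs (-0.56, SE 0.16, adjusted p = 0.00819). Both were below WT in all 3 Grb10 pA libraries. Zrsr1, a retrogene copy of the splicing factor gene Zrsr2 inside Commd1, had 16.2, 18 and 15.8 CPM in WT NPCs and 23, 27.7 and 27 CPM in Grb10 pA NPCs (0.60, SE 0.15, adjusted p = 0.00387). Mkrn3, a makorin ring finger gene of the Snrpn cluster, had 5.18, 5.35 and 3.03 CPM in WT NPCs and 11.1, 8.47 and 5.47 CPM in Grb10 pA NPCs (0.86, SE 0.30, adjusted p = 0.0344), and this call was lost in 6 of 11 alternatives, DESeq2 among them.

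Markers moved in the pA lines as well. In Grb10 pA ESCs, 2 of 9 extraembryonic endoderm markers and 1 of 5 trophoblast markers tested rose, 2 of 6 neuron markers fell, and the summed trophoblast level was 109 to 124 CPM against 63 to 77.2 CPM in WT, with Tfap2c the marker called up (0.76) and a median of -0.1 over the 5 tested. In Podxl pA NPCs, 5 of 9 extraembryonic endoderm markers tested rose, from a summed 797 to 987 CPM in WT to 1400 to 1530 CPM. In Grb10 pA NPCs, 5 of 7 neural progenitor markers fell, from 209 to 229 CPM in WT to 134 to 150 CPM, with Hes5 and Fabp7 at 0 in Grb10 pA, 4 of 9 endoderm markers fell, to 621 to 767 CPM, and 4 pluripotency markers rose and 1 fell of 10. Ctcf itself had log2 fold changes of -0.64 as ESCs, called down, and -0.44 as NPCs, not called, in Grb10 pA. It lies on chromosome 8, whose median log2 fold change in Grb10 pA was -0.49 as ESCs and -0.48 as NPCs over 730 genes, and no listed imprinted gene lies there. The part of these genes in the results was not tested. Genes of imprint control that rose were Dnmt3b (log2 fold change 0.53) and Dnmt3l (0.78) in Podxl pA ESCs. In Grb10 pA NPCs they were Dnmt3l (0.98) and Tet1 (0.53), and none of the 23 tested fell in those comparisons. Zfp57 stayed under the fold threshold in Grb10 pA, at -0.46 as ESCs and 0.45 as NPCs. The difference of the Grb10 pA effects between cell types was called for Zfp57 (0.91), Dnmt3l (1.28) and Tet1 (0.77).

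Between the cell types, the effect of Podxl pA differed in 0 of 40 imprinted genes by edgeR (background 0.098%, 0.0678% up and 0.0301% down) and in 0 by DESeq2, with 9 genes at an unadjusted p under 0.05. Nnat had the largest difference, -1.76 (SE 0.53, adjusted p = 0.216). The effect of Grb10 pA differed in 2 of 40 (5.9%, 2.86% up and 3.04% down), Mest and Kcnq1ot1. In Podxl pA ESCs the count fell from 3 to 0 without Podxl pA replicate 1, and to 1 without Podxl pA replicate 2 or WT replicate 2, and it was 3 without Podxl pA replicate 3 or WT replicate 1. Without ESC Podxl pA replicate 3 the Podxl pA difference was called in 1 gene. The Grb10 pA difference rose to 4 without ESC Grb10 pA replicate 1 and fell to 1, Mest, without ESC WT replicate 2, NPC WT replicate 2 or NPC Grb10 pA replicate 3.

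**Figure D5:**
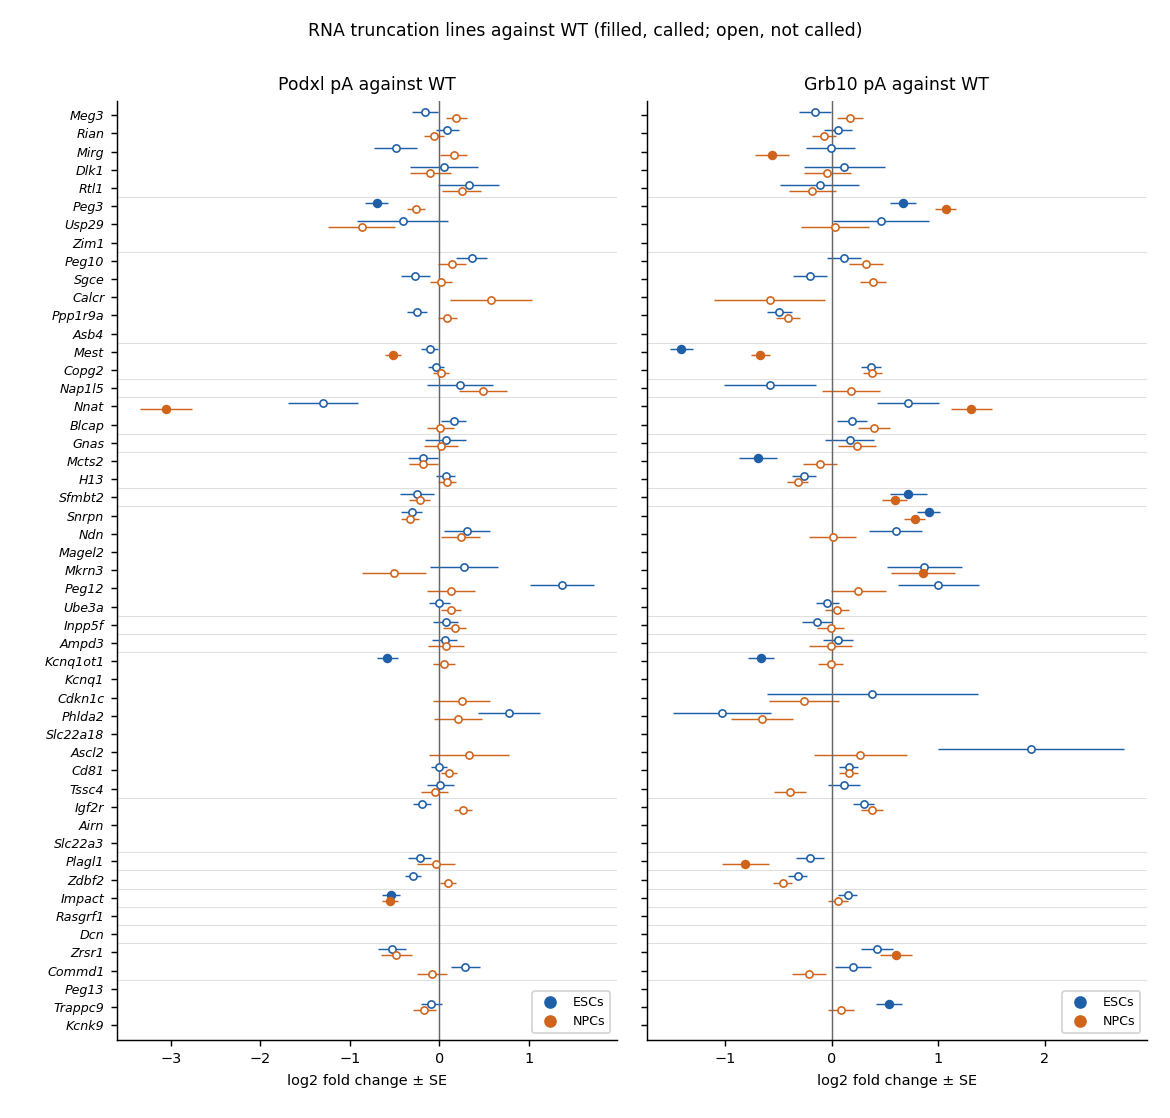
Log2 fold change of Podxl pA and Grb10 pA against WT (horizontal axes, points with bars of 1 SE) of each imprinted gene (vertical axis) in ESCs (blue) and NPCs (orange), with filled points for genes called and open points for the others. Nnat lies farthest left in Podxl pA NPCs (-3.06) and to the right in Grb10 pA NPCs (1.31), and genes with an SE above 1 are not drawn.

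Over the 6 comparisons of a mutant with its WT, 28 of the 47 imprinted genes tested in either table were called at least once (59.6%, against 31.6% of 16683 genes in all), 10 in at least 2 (21.3% against 8.84%) and 6 in at least 3 (12.8% against 1.61%), namely Impact, Kcnq1ot1, Mest, Peg3, Plagl1 and Sfmbt2. Comparisons of the pA lines share their WT libraries, and those of a line as ESCs and NPCs share the line. The calls of a gene in several comparisons are thus not independent. Each of the 6 genes also had a call that was lost under some alternatives. This held for Impact, Peg3 and Kcnq1ot1 in Podxl pA ESCs and for Mest in Podxl pA NPCs. It also held for Plagl1 in ESC-ΔZF1 and for Sfmbt2 and Kcnq1ot1 in NPC-ΔZF1, among others. Genes tested only in the rescue table entered 2 of the 6 comparisons and could not reach 3. The imprinted genes were also chosen with earlier results known, so these shares are not an independent result against all genes. Peg13, a noncoding RNA inside an intron of Trappc9, had 6.59 to 12.7 CPM in the rescue libraries and at most 0.917 CPM in the others, where it was too low to be tested. Whether the tables were counted in the same way was not tested.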

How the data were processed

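RNA from 26 libraries in 10 groups was depleted of rRNA and reverse-transcribed with random hexamers. The authors aligned reads to mm10 with STAR and counted them with featureCounts through the sns pipeline, and the versions and gene annotation are not given in the sources used here. The deposited values are whole-number counts per gene, not normalized and not split by strand, so overlapping genes on opposite strands cannot be separated. The truncation table held 3 columns that match no sample, which were not used here. Positions are those of GENCODE M21 on GRCm38, in which 53292 of 55291 symbols (96.4%) were found, and promoters those of RefSeq on GRCm38.p6.

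Each table was fitted apart with edgeR 4.0.16 (R 4.3.3), with TMM normalization, filterByExpr, a mean for each group and the quasi-likelihood F test, adjusted by Benjamini-Hochberg over all genes tested. Genes were called at an adjusted p no higher than 0.05 with a log2 fold change of 0.5 or more either way, the cutoffs of the study, which used DESeq2. The standard error (SE) is the fold change over the square root of F. The floor behind a count of 0 is 3 counts, which covers counting error only. The median library held 15019046.5 counts in the rescue table and 4472121 in the truncation table.

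The imprinted genes, marker lists and imprint control list were chosen with earlier results of these data known. Genes called against WT are named with each library's value, the 10 largest called changes on differentiation are named in each WT line, and other genes are given by counts and ranges. In simulated counts with 200 changed genes, the fit found 195 in the rescue design and 199 in the truncation design. It made 16 and 4 false calls. The changes put in were larger than most of those called against WT and were placed only in genes above a minimum mean count. How well the fit finds smaller changes, or changes at fewer reads, was not tested. Alternatives were DESeq2 1.42.0, its size factors, no filter, a replicate block, only the libraries compared, the chromosome 11 median in the offsets (rescue lines) and each library left out.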

Additional observations from a re-analysis of the deposited data

Results flagged for a closer look

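In 4 imprinted genes the effect of a mutation differed between NPCs and ESCs by the test of the difference itself, as an interaction of line and cell type in edgeR. They were 2 of 47 (4.26%) for ΔZF1, where 2.7% of all genes were called, and 2 of 40 (5%) for Grb10 pA, where 5.9% were, so that their number is close to the background. Ampd3 differed by -1.10 on the log2 scale for ΔZF1 (SE 0.23, adjusted p = 0.0327), with a mutant effect of -1.23 in NPCs and overlapping libraries in ESCs, and the call was lost in 7 of 13 alternatives, among them the replicate block and each ESC or NPC-ΔZF1 library left out (highest adjusted p = 0.2). Phlda2 differed by -1.24 for ΔZF1 (SE 0.20, adjusted p = 0.0129), with -0.94 in NPCs and higher values in both ESC-ΔZF1 libraries that did not pass the test, and the call was lost in 6 of 13, each with an ESC or NPC-ΔZF1 library left out. Mest differed by 0.74 for Grb10 pA (SE 0.14, adjusted p = 0.00168), with -1.41 in ESCs and -0.67 in NPCs, and Kcnq1ot1 by 0.66 for Grb10 pA (SE 0.16, adjusted p = 0.0148), with -0.66 in ESCs and overlapping libraries in NPCs. The call of Mest stood in all 17 alternatives and that of Kcnq1ot1 in 14 of 17. Single values that stand apart were not looked for within groups, which held 2 or 3 libraries.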

How the results depend on the processing

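Of the calls of single imprinted genes, 615 combinations of a result and an alternative kept direction and call, 112 kept direction only and 1 reversed, Commd1 in NPC-ΔZF1, at 0 with the chromosome 11 median in the offsets. The count of imprinted genes called for ΔZF1 in ESCs (4) was 7 with no filter and 2 with a replicate block or the chromosome 11 offset. For ΔZF1 in NPCs (19) it was 6 with only the libraries compared. For the difference between cell types (2) it was 4 by DESeq2, 6 with no filter and 1 with a replicate block. For Podxl pA in ESCs (3) it was 5 with no filter and 1 with only the libraries compared, and for its difference between cell types (0) 2 with no filter. The cause of these shifts was not tested. Leaving out a library gave 0 in each case for ΔZF1 in ESCs, 5 to 24 in NPCs and 0 to 17 for their difference. It gave 0 to 3 and 2 to 3 for Podxl pA, 0 to 1 for its difference, 6 to 9 and 7 to 9 for Grb10 pA, and 1 to 4 for its difference. For differentiation it gave 28 to 35 (rescue WT), 27 to 30 (ΔZF1), 22 to 25 (E14 WT), 20 to 22 (Podxl pA) and 21 to 25 (Grb10 pA). A lone library left in a group is assumed to vary like the other groups. Replicate numbers do not pair the libraries: correlations of the deviations of same-numbered libraries were -0.137 to 0.132 in the rescue table and -0.209 to 0.154 in the truncation table, and the block ended the calls of Ndn and Peg12 in ESC-ΔZF1, of Kcnq1ot1 and Cdkn1c in NPC-ΔZF1 and of the Ampd3 difference, and no other call of a single gene. DESeq2 gave no adjusted p for Asb4 and Slc22a18 in NPC-ΔZF1. The truncation table was the shallower, and 11 of the 51 genes had too few reads there to be tested. The part of depth in this was not tested, and Peg13 was also lower there in CPM.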
